A study of Homo sapiens with 17 samples.

Results

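The 10 genes described here encode chains of cytokine receptors: IL2RA, IL2RB, IL2RG, IL15RA, IL21R, IL4R, IL7R, IL10RA, IL12RB2 and IL18R1. They were chosen by name among the 18377 genes that the platform annotation gives a probe set with 1 gene symbol, and each of the 10 has 1 such probe set. IL2RG is the common gamma chain, which carries JAK3 and is a part of the receptors of interleukin-2, interleukin-4, interleukin-7, interleukin-9, interleukin-15 and interleukin-21. IL2RB carries JAK1 and is shared by the receptors of interleukin-2 and interleukin-15, while IL2RA and IL15RA are the private alpha chains that raise the affinity for them. IL21R, IL4R and IL7R each pair with the gamma chain. IL10RA, IL12RB2 and IL18R1 lie outside that family: the interleukin-10 and interleukin-12 receptors signal through JAK1 or JAK2 with TYK2, and the interleukin-18 receptor through MYD88. In natural killer (NK) cells interleukin-2 and interleukin-15 drive growth and survival, and interleukin-12 and interleukin-18 drive interferon production. Of the 10 genes 9 were bright enough to test, and none of these 9 passed the threshold in any of the 4 comparisons made with limma.

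The samples are 17 arrays of total RNA from the human NK/T-cell lymphoma line NKYS, which was kept in medium with interleukin-2 throughout and electroporated with an siRNA or a plasmid. The groups were JAK3 siRNA (2 arrays) with its own control siRNA (2 arrays), and EZH2 siRNA (2 arrays) with a control siRNA tied to each by title (2 arrays). Plasmid arrays carried a full-length EZH2 plasmid (6 arrays), an EZH2 plasmid without the catalytic SET domain (1 array) or an empty vector (2 arrays). EZH2 is the histone methyltransferase of Polycomb repressive complex 2. The full-length plasmids are titled wild type (WT), Y244D or Y244A, once in a set numbered 1 and once in a set 2, whose WT array carries no number. In set 2 the transfection fields name other constructs than the titles do, so that arrays are called here by their titles and only pooled as full-length EZH2. The line carries its own EZH2 and JAK3, and the labels do not name the time from electroporation to extraction.

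Values are linear signal intensities as deposited, and the number of arrays limits their precision. Array medians were 60.28 to 72.98, and the interquartile range of log2 signal was 1.79 to 2.183 on the 9 plasmid arrays, below that of all 8 siRNA arrays (2.265 to 2.33). JAK3 measured 138.1 and 136.7 with JAK3 siRNA, against 322.5 and 326.3 with its control siRNA. EZH2 measured 500.9 and 488.7 with EZH2 siRNA, against 926.3 and 690.8 on the paired controls (log2 change -0.69; limma, adjusted p = 0.0275, but 0.109 with no filter). The log2 difference was -0.89 in pair 1 and -0.50 in pair 2, and the call did not hold on pair 2 alone. Of NK cell markers, PRF1 (perforin) had 1641 to 3633 and NKG7 433.3 to 1701 over all arrays, while the T cell receptor component CD3E had 30.58 to 39.57, near the lower quartile of all signals (32.43 to 38.56). The summed signal of 16 NK cell markers was 11700 and 11300 with EZH2 siRNA and 7474 and 10750 on the paired controls. It was 9811 and 9892 with JAK3 siRNA and 9592 and 9674 on its controls, and 4443 to 7047 on plasmid arrays. From 8 to 10 of these 16 markers exceeded the array median. Of the other lists on the same arrays, 2 to 4 of 10 T cell, 3 to 5 of 8 B cell, 2 to 4 of 8 monocyte and 5 to 7 of 11 epithelial and fibroblast markers did so.

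The receptor genes sit on 8 chromosomes, with IL2RA and IL15RA both on chromosome 10 and IL4R and IL21R both on chromosome 16. STAT5, the factor that JAK3 activates below the gamma chain, binds the motif TTCNNNGAA, which reads alike on both strands. RefSeq promoter windows (GRCh38.p14, 250 bases before to 50 after a gene start) were found for 9 of the 10 genes, all but IL2RB, with 14 windows in all. The motif stood in 1 of these 14 windows, 1 of the 4 windows of IL15RA, against 7.66% of all 35116 windows. Windows are shown for IL15RA, for IL2RA, whose value after EZH2 siRNA lay farthest from 0, and for CISH, a STAT5-induced inhibitor of the interleukin-2 receptor that fell after JAK3 siRNA. All 3 lie on the minus strand and are printed 5′ to 3′ along the gene, at chr10:5977997-5978296, chr10:6062318-6062617 and chr3:50611725-50612024. Capitals mark the motif.
IL15RA: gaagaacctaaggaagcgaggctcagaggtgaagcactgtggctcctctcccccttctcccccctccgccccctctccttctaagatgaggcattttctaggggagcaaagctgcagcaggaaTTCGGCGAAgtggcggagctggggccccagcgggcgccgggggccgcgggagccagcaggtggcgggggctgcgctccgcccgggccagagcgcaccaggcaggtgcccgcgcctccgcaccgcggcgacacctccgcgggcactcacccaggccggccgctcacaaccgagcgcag
IL2RA: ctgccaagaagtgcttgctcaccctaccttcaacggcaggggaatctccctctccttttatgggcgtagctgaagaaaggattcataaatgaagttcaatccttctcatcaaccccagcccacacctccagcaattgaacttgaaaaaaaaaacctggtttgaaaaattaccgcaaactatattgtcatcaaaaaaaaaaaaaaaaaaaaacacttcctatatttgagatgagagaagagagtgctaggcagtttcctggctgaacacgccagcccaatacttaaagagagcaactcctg
CISH: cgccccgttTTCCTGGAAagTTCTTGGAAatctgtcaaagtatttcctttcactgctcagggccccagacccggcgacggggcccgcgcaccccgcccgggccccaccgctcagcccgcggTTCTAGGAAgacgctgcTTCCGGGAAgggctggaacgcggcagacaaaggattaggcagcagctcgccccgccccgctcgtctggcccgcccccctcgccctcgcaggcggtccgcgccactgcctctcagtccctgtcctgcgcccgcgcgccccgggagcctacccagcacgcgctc
CISH holds 4 copies, which begin 241, 230, 129 and 112 bases before the gene start, the IL15RA window 1 copy at 127 bases, and the IL2RA window none. These matches describe letters in the window only. CISH was picked as an example, and the window of SOCS1, which also fell after JAK3 siRNA, was not examined by itself. No contrast between called genes and receptor genes can be read from CISH alone. The IL2RA window has 4 CG dinucleotides, that of IL15RA 27 and that of CISH 33, beside a median of 14 over all windows.

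**Figure D1:**
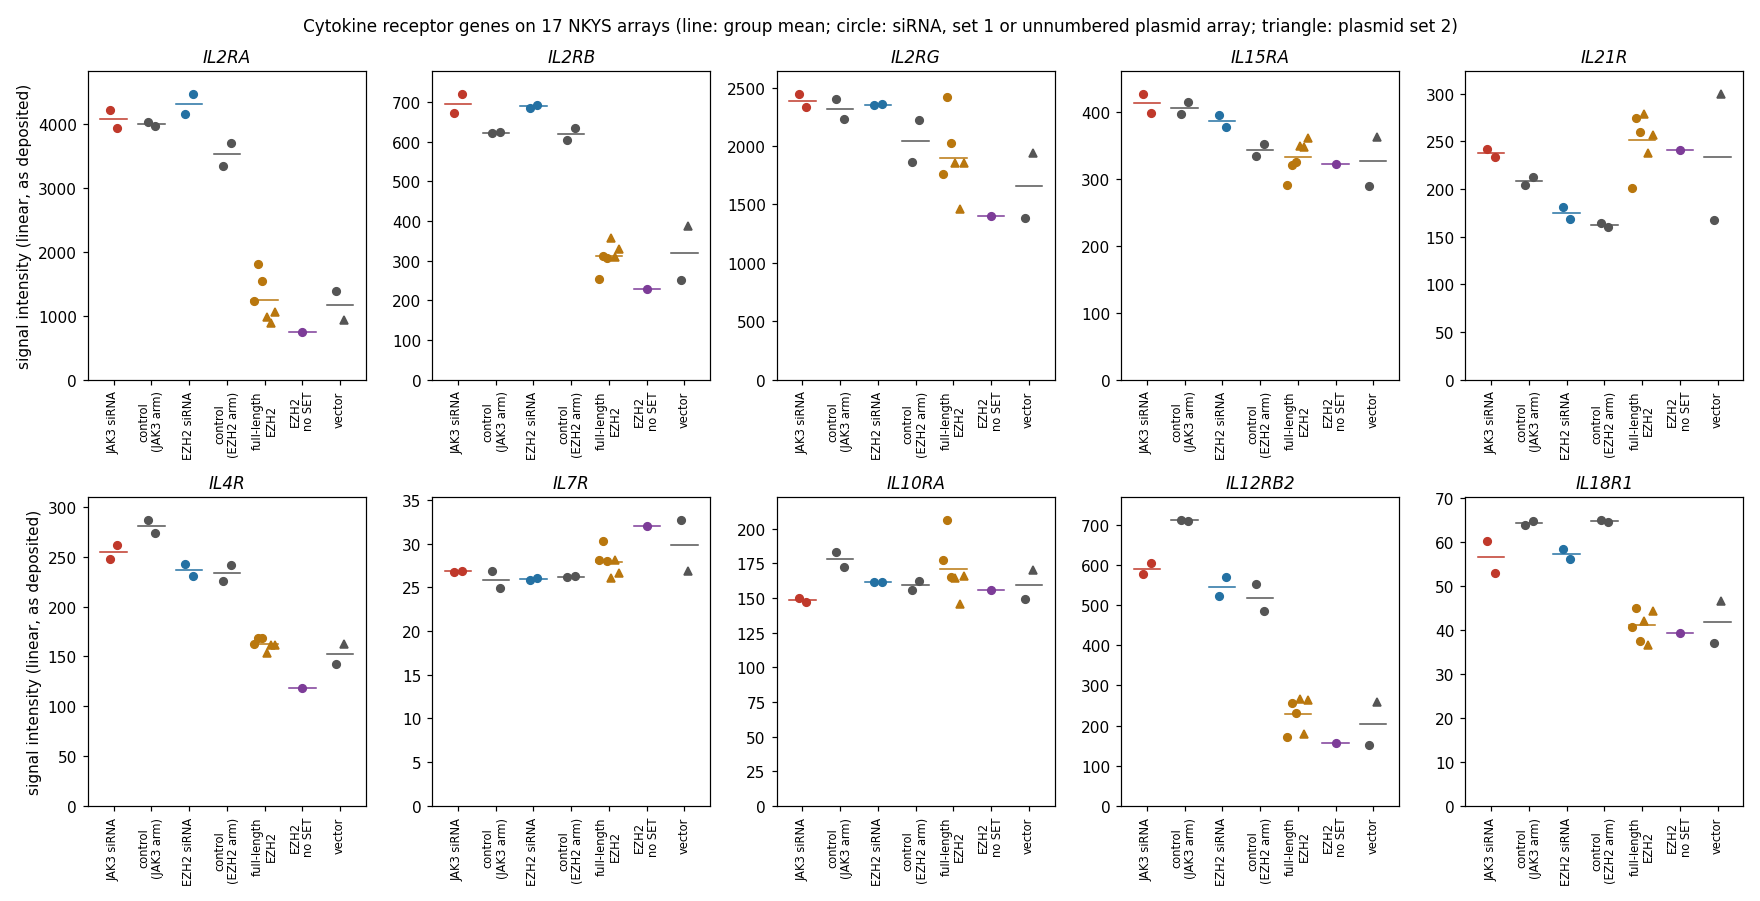
Signal intensity (linear, as deposited) of the 10 receptor genes on all 17 arrays, 1 panel per gene, with groups on the x axis; lines are group means. IL2RA, IL2RB, IL4R, IL12RB2 and IL18R1 lay lower on all 9 plasmid arrays than on any of the 8 siRNA arrays, and IL7R stayed at 24.89 to 32.7 throughout.

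JAK3 siRNA was set against its control siRNA to ask how receptor transcripts stood once the gamma chain's kinase was lowered. Each gene was fitted with limma, a linear model on log2 signal that shares the spread between genes, and a gene was called at a Benjamini-Hochberg adjusted p under 0.05 over all genes tested. The receptor chains of the interleukin-2 and interleukin-15 system did not pass. IL2RA measured 4215 and 3939 with JAK3 siRNA, against 4027 and 3968 with control siRNA. The groups overlapped, and the log2 change was 0.03 (SE 0.07; 95% interval -0.13 to 0.18; limma, adjusted p = 0.927), or -0.043 after quantile normalization. IL2RG, the chain to which JAK3 binds, measured 2447 and 2330 with JAK3 siRNA and 2400 and 2234 with control siRNA. These groups overlapped too, and the value was 0.04 on the log2 scale (SE 0.08; 95% interval -0.13 to 0.22; limma, adjusted p = 0.893). For both chains the interval leaves out a change as large as the fall of JAK3 itself, which stood at -1.24 on the log2 scale (SE 0.07; limma, adjusted p = 5.7e-06). IL15RA measured 426.5 and 398.1 with JAK3 siRNA and 396.9 and 414.2 with control siRNA, a log2 change of 0.02. IL2RB, the JAK1-binding chain, measured 671.5 and 721.3 with JAK3 siRNA and 621.3 and 624 with control siRNA. Both JAK3 siRNA arrays were above both controls, and the change of 0.16 (log2, SE 0.07; limma, adjusted p = 0.391) did not pass.

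Among the other partners of the gamma chain, IL21R measured 242.1 and 233.4 with JAK3 siRNA, against 203.8 and 212.1 with control siRNA. Its groups did not overlap, and the log2 change of 0.19 (SE 0.07; limma, adjusted p = 0.264) did not pass. IL4R measured 247.4 and 261.3 with JAK3 siRNA, against 286.8 and 273.9 with control siRNA, with no overlap and a log2 change of -0.14 (limma, adjusted p = 0.5). IL7R, the receptor chain that binds interleukin-7, was below the lower quartile of signals on all 17 arrays and was left out by the filter on dim genes. It measured 26.78 and 26.88 with JAK3 siRNA and 26.88 and 24.89 with control siRNA, so that no change of it can be read.

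The lowest values after JAK3 siRNA were those of receptor chains outside the gamma-chain family. IL12RB2, the interleukin-12 receptor chain that recruits STAT4, measured 578.2 and 603.7 with JAK3 siRNA, against 711.9 and 710.6 with control siRNA. Its log2 change was -0.27 (SE 0.08; limma, adjusted p = 0.169) over all siRNA arrays and did not pass. Of the alternative settings, only a fit of just these 4 arrays gave a pass for IL12RB2 (limma, adjusted p = 0.0405). Quantile normalization brought its log2 change to -0.226, without a pass. The EZH2-arm controls, which received a control siRNA too, measured 552.4 and 485.2, so that the JAK3 siRNA arrays lay between both control groups. IL10RA, the ligand-binding chain of the interleukin-10 receptor, measured 150.1 and 146.7 with JAK3 siRNA, against 183.3 and 172.2 with control siRNA. Its log2 change was -0.26 (SE 0.07; limma, adjusted p = 0.13), and the EZH2-arm controls measured 155.6 and 162.4. IL18R1, the ligand-binding chain of the interleukin-18 receptor, measured 60.34 and 52.88 with JAK3 siRNA and 63.88 and 64.79 with control siRNA, a log2 change of -0.19 (limma, adjusted p = 0.351). This was -0.283 without JAK3 siRNA array 1 and -0.092 without JAK3 siRNA array 2. Its signal was close to the lower quartile, at 0.963 to 1.98 times that quartile over all arrays.

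In all, 0 of the 9 genes tested were called after JAK3 siRNA by limma, beside 1.38% of all 14466 genes tested. At an unadjusted p under 0.05 there were 5 of 9, beside 12.4% of all genes; they are IL2RB, IL21R, IL10RA, IL12RB2 and IL18R1. Values were above 0 for 5 and below 0 for 4, with a median log2 change of 0.02, beside -0.01 over all genes. The 95% intervals of the 9 genes together spanned -0.45 to 0.35. The JAK3-arm controls, in which neither JAK3 nor EZH2 was targeted, differed from the EZH2-arm controls by a gap that varied between genes. As a difference of log2 means it was 0.46 for IL12RB2, 0.36 for IL21R, 0.26 for IL4R, 0.25 for IL15RA, 0.19 for IL2RG, 0.18 for IL2RA and 0.16 for IL10RA, and 0.01 and -0.01 for IL2RB and IL18R1. In bulk RNA a lower share of cells with a transcript and less of it per cell cannot be told apart.

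**Figure D2:**
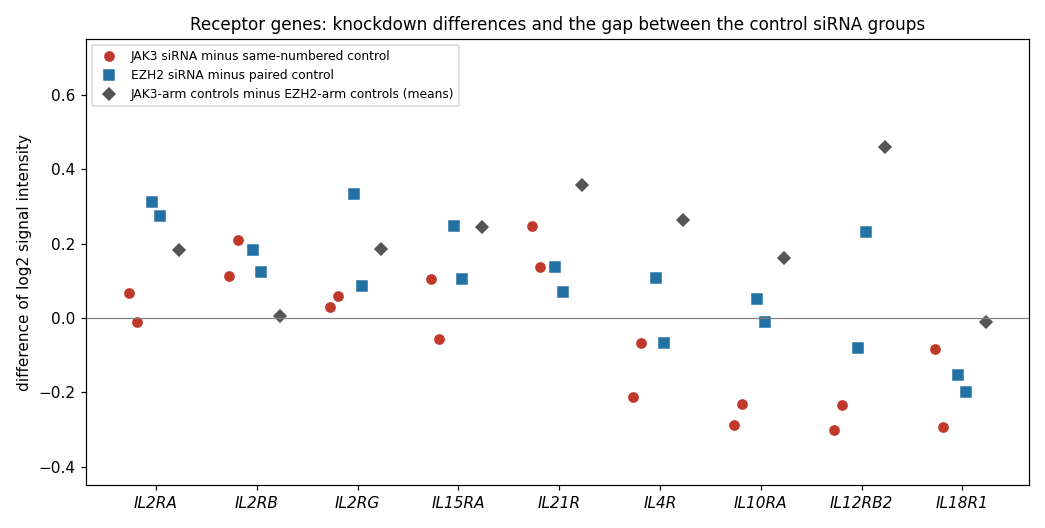
Difference of log2 signal for 9 receptor genes: each JAK3 siRNA array minus its same-numbered control (circles), each EZH2 siRNA array minus its paired control (squares), and the mean of the JAK3-arm controls minus that of the EZH2-arm controls (diamonds). IL12RB2 has the widest control gap, 0.46, beside -0.30 and -0.24 with JAK3 siRNA.

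EZH2 siRNA was set against its paired controls to ask how the same transcripts stood when the methyltransferase was lowered. Here the chains of the interleukin-2 and interleukin-15 receptors had values above 0 in both pairs, as did IL21R, and none passed. IL2RA measured 4157 and 4477 with EZH2 siRNA, against 3349 and 3702 on the paired controls. Both siRNA arrays lay above both controls, with log2 differences of 0.31 in pair 1 and 0.27 in pair 2. The log2 change was 0.29 (SE 0.07; 95% interval 0.14 to 0.45; limma, adjusted p = 0.0719) and did not pass. Of the alternative settings, only trend and robust fitting gave a pass for IL2RA (limma, adjusted p = 0.0349). Quantile normalization lowered its log2 change to 0.206, without a pass. The JAK3-arm controls measured 4027 and 3968, which is above both EZH2-arm controls and below both EZH2 siRNA arrays. IL2RG measured 2349 and 2359 with EZH2 siRNA and 1863 and 2222 on the controls. The difference was larger in pair 1 (0.33, against 0.09 in pair 2), whose control was the lower one. Its log2 change was 0.21 (SE 0.08; limma, adjusted p = 0.226). Leaving out either array of pair 2 gave 0.33, and leaving out either array of pair 1 gave 0.09. With the pairs as a block, these are the values of the remaining pair alone and hold no spread between EZH2 pairs.

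IL15RA measured 395.1 and 377.5 with EZH2 siRNA, against 332.9 and 351.3 on the paired controls, without overlap. Its log2 change was 0.18 (SE 0.08; limma, adjusted p = 0.28), or 0.104 without siRNA array 1 or control array 1 and 0.247 without siRNA array 2 or control array 2. IL2RB measured 686.5 and 692.5 with EZH2 siRNA, against 605.1 and 635.8 on the controls, also without overlap, with a log2 change of 0.15 (limma, adjusted p = 0.334). IL21R measured 180.9 and 168.4 with EZH2 siRNA, against 164.4 and 160.3 on the controls, a log2 change of 0.10 (0.14 in pair 1 and 0.07 in pair 2). IL18R1 was the 1 gene with a value below 0, at 58.47 and 56.2 with EZH2 siRNA and 65.03 and 64.56 on the controls (log2 change -0.18, SE 0.08; limma, adjusted p = 0.303). IL4R (0.11 and -0.07 in pairs 1 and 2), IL10RA (0.05 and -0.01) and IL12RB2 (-0.08 and 0.23) had pairs of opposite sign. IL7R measured 25.81 and 26.07 with EZH2 siRNA and 26.15 and 26.31 on the controls.

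Of the 9 genes tested, 0 were called after EZH2 siRNA by limma, beside 0.94% of all genes, and 4 had an unadjusted p under 0.05 (IL2RA, IL2RG, IL15RA and IL18R1), beside 15.6% of all genes. Values were above 0 for 8 of 9, with a median log2 change of 0.10, beside -0.0042 over all genes. After centring each array on its median, IL4R and IL10RA turned to -0.01, which leaves 6 of 9 above 0. The NK cell marker sum was lowest of the siRNA arrays on EZH2 control array 1 (7474), and its part in the values of these genes was not tested.

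The difference between the knockdowns was tested directly. It passed for 0 of the 9 receptor genes, beside 0.366% of all genes, and 3 had an unadjusted p under 0.05, beside 8.14% of all genes. These were IL12RB2 (JAK3 effect minus EZH2 effect -0.34, SE 0.12; limma, adjusted p = 0.382), IL10RA (-0.28, SE 0.10; limma, adjusted p = 0.435) and IL2RA (-0.27, SE 0.10; limma, adjusted p = 0.47). IL2RB differed by 0.01 (95% interval -0.21 to 0.23) and IL18R1 by -0.01 (95% interval -0.25 to 0.23), and both changed sign after quantile normalization, IL18R1 also after median centring. For the other 4 genes the difference was -0.17 for IL2RG, -0.16 for IL4R, -0.15 for IL15RA and 0.09 for IL21R. Leaving out an EZH2-arm array moved several of these by over 1.5 times. Without siRNA array 1 or control array 1 the difference was -0.498 for IL12RB2, -0.042 for IL2RG, -0.073 for IL4R and -0.08 for IL15RA. Without siRNA array 2 or control array 2 it was -0.188 for IL12RB2, -0.29 for IL2RG, -0.247 for IL4R and 0.055 for IL21R. None passed in these fits, which take the EZH2 effect from 1 pair alone.

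**Figure D3:**
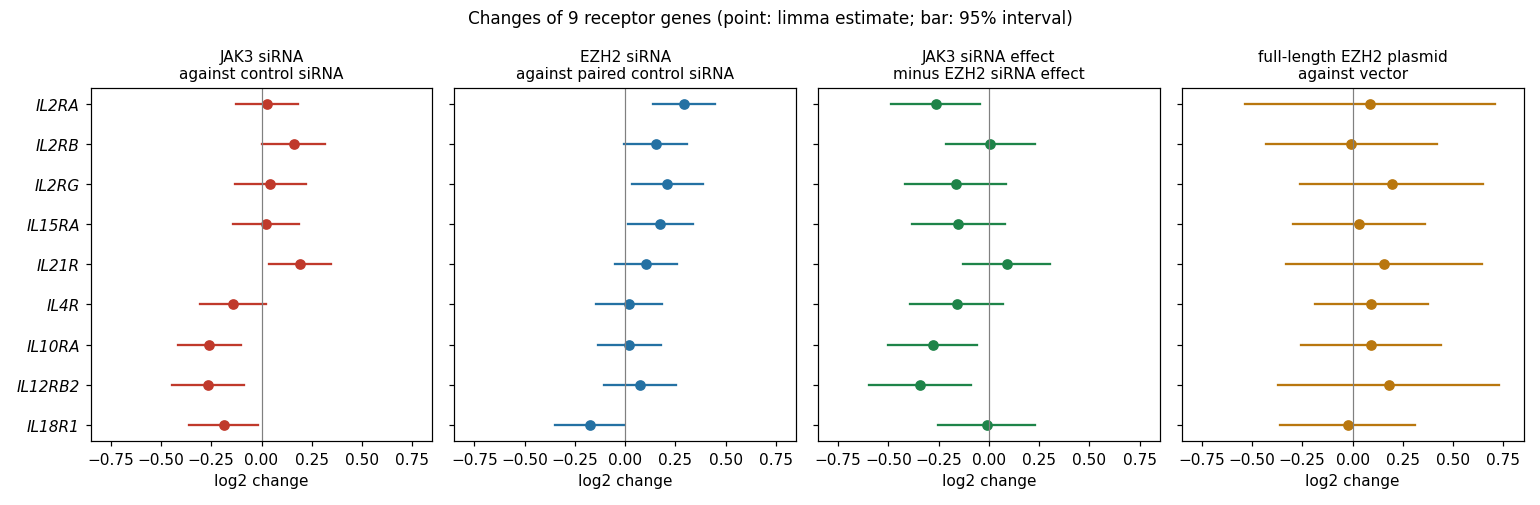
Log2 change of 9 receptor genes in 4 comparisons, as the limma estimate (point) and its 95% interval (bar); none passed after adjustment over all genes. The intervals of the knockdowns against control reach from -0.45 to 0.45 and those of the difference between the knockdowns from -0.60 to 0.31. Those of the plasmid comparison reach from -0.54 to 0.73.

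Among genes around the receptors, a ligand gene and inhibitor genes were called after JAK3 siRNA. Whether they differ from the receptor genes was not tested. The lists were chosen with earlier results of these data known, so that their shares of called genes are no test of the lists. Of 13 genes for ligands of these receptors, 12 were measured and 5 passed the filter. Of these 5, 1 fell after JAK3 siRNA and 0 rose, beside 1.38% of all genes called. It was IL10, the ligand of IL10RA, with 480 and 489.4 with JAK3 siRNA, against 904.3 and 852.2 with control siRNA (log2 change -0.86, SE 0.08; limma, adjusted p = 0.000291). The EZH2-arm controls measured 1077 and 1305, so that IL10 also differed between the control groups. The JAK3 siRNA effect minus the EZH2 siRNA effect on IL10 was -0.99 on the log2 scale (SE 0.12; limma, adjusted p = 0.00299). After EZH2 siRNA no ligand passed, with IL12B at 0.15 and IL10 at 0.13. The list's median log2 change was 0.02 after JAK3 siRNA and -0.01 after EZH2 siRNA, beside -0.01 and -0.0042 over all genes.

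Of 43 genes for other cytokine receptor subunits, 41 were measured and 27 tested. After JAK3 siRNA 0 of the 27 passed, beside 1.38% of all genes, and the list's median was -0.03. The interferon gamma receptor gene IFNGR2 was at 0.16. The interleukin-23 receptor gene IL23R was at 0.42 (SE 0.11; limma, adjusted p = 0.112, but 0.0086 in a fit of only the 4 arrays compared). IL23R measured 227 and 219.3 with JAK3 siRNA and 174.5 and 158.4 with its control siRNA. The EZH2-arm controls, at 169.2 and 283.8, lay on either side of the JAK3 siRNA values. After EZH2 siRNA 1 of the 27 rose and 0 fell, beside 0.94% of all genes called, with a median of 0.02. It was the interleukin-1 receptor gene IL1R1, with 1025 and 837.2 with EZH2 siRNA, against 457.3 and 648.8 on the paired controls (log2 change 0.77, SE 0.14; limma, adjusted p = 0.0341). By limma the call was lost with no filter (adjusted p = 0.144), with trend and robust fitting (adjusted p = 0.118), with log2(value + 32) (adjusted p = 0.0558) and without the pairs as a block (adjusted p = 0.0559). It did not hold without an array of pair 1 either, where the log2 change of 0.37 is that of pair 2 alone. The JAK3-arm controls measured 924 and 846.6. The difference between the knockdowns did not pass for IL1R1 (-0.82, adjusted p = 0.139) or for the interferon gamma receptor gene IFNGR1 (-0.37, adjusted p = 0.45) by limma. Without either array of pair 2 the difference was -1.22 for IL1R1 and -0.59 for IFNGR1, with the EZH2 effect taken from pair 1 alone.

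Of 37 genes for kinases, STATs and inhibitors below the receptors, 33 were tested. After JAK3 siRNA 3 fell and 0 rose, beside 1.38% of all genes called: the siRNA target JAK3 itself, SOCS1 and CISH. As the siRNA target, JAK3 does not count as a response of the list. The median of the list was -0.03. CISH measured 241.2 and 249 with JAK3 siRNA, against 349.8 and 348.5 with control siRNA (log2 change -0.51, SE 0.08; limma, adjusted p = 0.00964). SOCS1, an inhibitor of JAK kinases, measured 156.3 and 154.7 with JAK3 siRNA, against 219.6 and 219.4 with control siRNA (-0.50, SE 0.07; limma, adjusted p = 0.0038). The EZH2-arm controls measured 372 and 319.3 for CISH, on either side of the JAK3-arm controls. For SOCS1 they measured 194.1 and 168, between the JAK3 siRNA arrays and the JAK3-arm controls. Leaving out any 1 of the 4 arrays of this arm, JAK3 siRNA 1 or 2 or control 1 or 2, ended both calls, with adjusted p from 0.102 to 0.132 for CISH and from 0.0614 to 0.0811 for SOCS1, while the log2 changes stayed at -0.533 to -0.488 for CISH and -0.505 to -0.489 for SOCS1. With no filter CISH had an adjusted p of 0.0522. After EZH2 siRNA none passed, with CISH at -0.31 (limma, adjusted p = 0.0993) and STAT3 at 0.26 (limma, adjusted p = 0.125), and a median of -0.01. Without either array of EZH2 pair 2, CISH was at -0.47 and STAT3 at 0.35, which are the values of pair 1 alone. Between the knockdowns 1 of 33 differed, beside 0.366% of all genes, which was JAK3 itself (-1.39, SE 0.10; limma, adjusted p = 8.68e-05).

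Full-length EZH2 plasmids were set against empty vector to ask how the receptors stood with more EZH2. EZH2 ranged from 802.5 through a median of 950.7 to 2221 with the plasmids, against 258.8 and 349.5 with vector (log2 change 1.85, SE 0.35; limma, unadjusted p = 0.000348, adjusted p = 1). None of 14410 genes passed in this comparison (0% called; 0.0694%, or 10 genes, at an unadjusted p under 0.05). The values of all 9 tested receptor genes lay between -0.03 (IL18R1) and 0.19 (IL2RG) on the log2 scale, with SEs of 0.13 to 0.28, and 0 had an unadjusted p under 0.05. IL2RA ranged from 886.3 through 1147 to 1808 with full-length EZH2, against 937.1 and 1391 with vector. IL2RG ranged from 1457 through 1856 to 2422 with full-length EZH2, against 1381 and 1942 with vector. In both genes the plasmid range overlapped the vectors.

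Within the sets the values had opposite signs, and both vector arrays lay far apart. In set 1 all 3 plasmid arrays were above their vector and in set 2 all 3 were below theirs for 7 of the 9 genes, IL2RB, IL2RG, IL15RA, IL21R, IL4R, IL10RA and IL18R1, beside 19.6% of all genes. Each count rests on 1 vector array per set. IL21R measured 201.2, 274.2 and 259.2 in set 1 with the plasmids titled Y244D, Y244A and WT, against 167.7 with vector. In set 2 it measured 278.2, 238 and 257, against 299.8 with vector. The plasmid arrays of both sets thus overlapped, while the vectors differed by -0.84 (set 1 minus set 2, log2). IL2RG measured 1756, 2422 and 2026 in set 1, against 1381 with vector, and 1856, 1457 and 1855 in set 2, against 1942 with vector. Mean differences were 0.57 in set 1 and -0.18 in set 2 for IL2RG, and 0.53 and -0.22 for IL21R. The difference of the plasmid effect between sets did not pass for any receptor gene (IL21R 0.75, SE 0.28; IL2RG 0.75, SE 0.31; limma, adjusted p = 0.4 for both) nor for any of all genes (0% called; 1762 at an unadjusted p under 0.05). The interquartile range of log2 signal was 1.79 on the vector array of set 1 and 2.183 on that of set 2, the lowest and the highest of the plasmid arrays. After quantile normalization, which removes that gap, 4 of 9 genes (IL2RG, IL21R, IL10RA and IL18R1) kept the opposite signs, beside 13.8% of all genes. After median centring all 7 kept them, beside 24.1% of all genes.

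**Figure D4:**
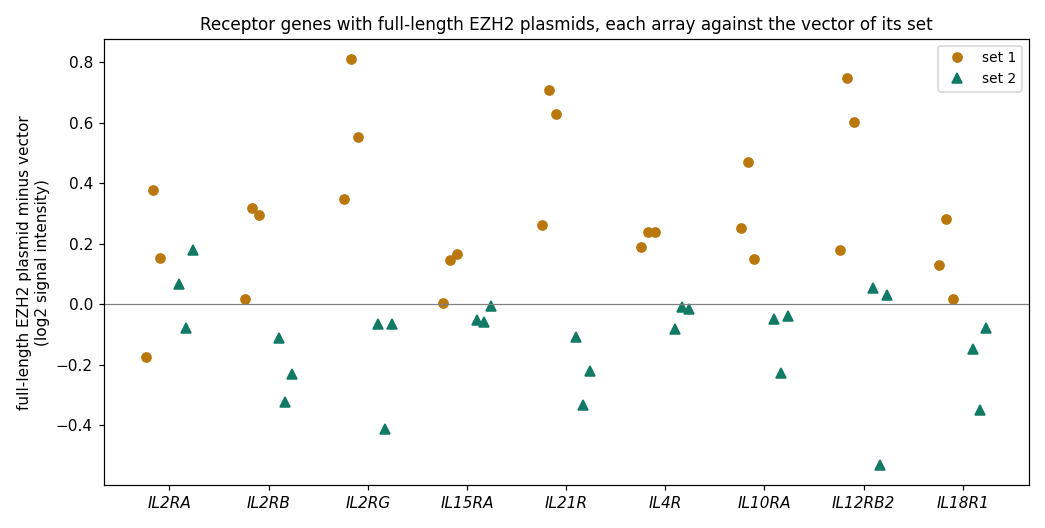
Log2 signal of each full-length EZH2 plasmid array minus the vector array of its set, for 9 receptor genes (circles set 1, triangles set 2; within a set from left to right the arrays titled Y244D, Y244A and WT). Points of set 1 lie above 0 and points of set 2 below 0 for 7 genes, beside 19.6% of all genes, while IL2RA and IL12RB2 are mixed.

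IL2RA was the 1 gene of the 9 tested whose vector array was higher in set 1 than in set 2. Its vectors differed by 0.57 and its full-length plasmid arrays by 0.63 (set 1 minus set 2, log2). It measured 1231, 1808 and 1547 in set 1, above 981.1, 886.3 and 1062 in set 2, without overlap. The values of IL2RB ran the other way, with 254, 312.6 and 307.5 in set 1 and 357.7, 309.3 and 329.4 in set 2, which overlap. On the array with the plasmid without SET, which has no replicate, IL2RA was 745.4, IL2RB 229.5 and IL4R 118.2, each the lowest of all 17 arrays. The vectors measured 937.1 and 1391 for IL2RA, 250.8 and 386.7 for IL2RB, and 142.5 and 162.7 for IL4R. IL12RB2 (156.7, against 152.6 and 257.6 with vector), IL21R (240.7, against 167.7 and 299.8) and IL10RA (155.8, against 148.9 and 170.4) lay between both vectors, as did IL2RG (1397, against 1381 and 1942), IL15RA (322.2, against 289.5 and 361.7) and IL18R1 (39.35, against 37.15 and 46.7).

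For IL2RA, IL2RB, IL4R, IL12RB2 and IL18R1 plasmid and siRNA arrays, which share no group, lay apart. IL2RA was 745.4 to 1808 (median 1062) on the 9 plasmid arrays, vectors included, against 3349 to 4477 (median 3997) on the 8 siRNA arrays, 3.5-fold lower by log2 means. IL12RB2 was 152.6 to 267.1 on plasmid arrays, against 485.2 to 711.9 on siRNA arrays, 2.8-fold lower. IL2RB was 229.5 to 386.7 on plasmid arrays, against 605.1 to 721.3 on siRNA arrays, 2.19-fold lower. These ranges do not overlap, nor do those of IL4R (118.2 to 168.1, against 225.3 to 286.8) and IL18R1 (36.62 to 46.7, against 52.88 to 65.03). So 5 of the 9 genes over the filter lay lower on every plasmid array, beside 20.5% of all genes. IL2RG (1381 to 2422, against 1863 to 2447), IL15RA, IL21R and IL10RA overlapped. IL21R had the higher mean on plasmid arrays (log2 difference 0.33), also after quantile normalization (0.60) and median centring (0.17). The same 5 genes lay lower on every plasmid array under both scalings, with IL2RA at -1.59 and -1.96 beside -1.81 as deposited (log2). The median difference of all genes was -0.13 after centring and 0.03 as deposited, and the sign of IL15RA (-0.23) turned after quantile normalization (0.16), as did that of IL10RA (0.04) after median centring (-0.12). The NK cell marker sum was lower on every plasmid array too (4443 to 7047, against 7474 to 11700). No test was made, since kind of nucleic acid, set of arrays and spread of signal differ together and cannot be told apart.

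The order of group means for IL2RA was EZH2 siRNA 4317 ± 226 (SD, n = 2), JAK3 siRNA 4077 ± 195 (SD, n = 2), JAK3-arm control 3997 ± 42.0 (SD, n = 2), EZH2-arm control 3525 ± 249 (SD, n = 2), full-length EZH2 1253 ± 358 (SD, n = 6), vector 1164 ± 321 (SD, n = 2) and the single array without SET 745.4. The ranges of neighbours in that order overlapped, except between the JAK3-arm and EZH2-arm controls, between the EZH2-arm controls and full-length EZH2, and between vector and the array without SET. For IL21R the order was full-length EZH2 251.3 ± 28.4 (SD, n = 6), the array without SET 240.7, JAK3 siRNA 237.7 ± 6.18 (SD, n = 2), vector 233.7 ± 93.4 (SD, n = 2), JAK3-arm control 207.9 ± 5.86 (SD, n = 2), EZH2 siRNA 174.7 ± 8.87 (SD, n = 2) and EZH2-arm control 162.4 ± 2.89 (SD, n = 2). Here neighbouring ranges overlapped down to the JAK3-arm controls, below which both groups of the EZH2 arm lay apart.

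Likeness between genes was described by Pearson's r of log2 signal over the 17 arrays, with the mean of each of the 3 arms taken out, so that the 9 plasmid arrays and their scaling weigh most. Among the receptors IL2RB went with IL21R (r = 0.759), IL12RB2 (0.745) and IL15RA (0.737), and IL2RG with IL12RB2 (0.712) and IL10RA (0.702). IL2RA went with IL2RG (0.618) but not with IL2RB (0.058) or IL15RA (-0.26). Of 14433 genes the closest to IL2RA were BHLHE40 (0.949) and NFKBIZ (0.948), to IL2RB FAM149B1 (0.959) and STX11 (0.951), and to IL2RG NMRK1 and XPC (0.959 each). The difference between the plasmid sets was left in. IL2RA was higher in set 1, which was not so for IL2RB, and the part of the sets in these values was not tested. With so many genes and 17 arrays that share their scaling, such values are a description only.

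With the plasmids, the surrounding lists had no call either (limma). Of 5 ligand genes the smallest unadjusted p values were those of IL13 (0.22) and IL21 (0.15), of 27 other receptor subunits those of IL9R (-0.23) and CSF2RB (-0.15), and of 33 kinases, STATs and inhibitors those of TYK2 (-0.21) and PIAS4 (-0.18), given as log2 changes. List medians were -0.08, 0.0048 and 0.02, beside 0.01 over all genes.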

How the data were processed

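The table holds linear signal intensity of 28869 probe sets, as deposited by the authors; the linear scale was read from the range of the values, and log2 was taken for all fits. RNA was labelled with Nugen kits, per the labels' protocols. Background correction, normalization and summarisation were not given in the sources used here. Probe sets with 1 symbol (19310; 1752 have several and 7807 none) were named from the platform annotation, the highest mean standing for each of 18377 genes. All 10 receptor genes matched RefSeq identifiers of GRCh38.p14.

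Genes with a mean under the 30th percentile of probe sets were left out of a fit, except JAK3 and EZH2. Differences were tested by limma 3.58.1 under R 4.3.3 (with data.table version 1.17.8), two-sided, with Benjamini-Hochberg adjustment over all genes and a threshold of 0.05. A single fit over the 8 siRNA arrays (3 residual degrees of freedom) gives both arms a shared estimate of the spread; the EZH2 pairs, tied by their titles, were a block (deviations within pairs correlated at r = -0.093). The plasmid fit (6 residual degrees of freedom) took 6 plasmid and 2 vector arrays; the array without SET stayed out. The WT array with no number was read as set 2, since the other is WT-1. Whether arrays came from separate cultures is not labelled, and p-values cover only the spread between arrays, which may be technical. The members and lists were chosen with earlier results of these data known. The naming rule took the 10 genes, JAK3, EZH2, up to 5 called genes per list or the 2 with the smallest unadjusted p, and the 2 closest genes by r of IL2RA, IL2RB and IL2RG. Fits were tested on simulated data. Alternatives were other scaling, filters, offset (32), probe set means, moderation, blocks and leaving out arrays; the interaction of plasmid and set, and other scalings within sets and between plasmid and siRNA arrays, were added after seeing the data. Figures used matplotlib 3.10.9.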

Additional observations from a re-analysis of the deposited data

Results flagged for a closer look

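EZH2 on the plasmid array titled Y244D-1 was 2221, far from the other 5 full-length arrays (gap over range 0.736, against a critical value of 0.625). It was the single such case among 12 genes examined in that group. For arrays that are all alike, chance would give about 1 in 20 for each gene, so that 1 case among 12 genes would not be rare. These arrays carry plasmids titled WT, Y244D and Y244A in 2 sets, and the ratio was taken on linear signal. The reason for the high value was not tested. EZH2 was 1471 on the array with the plasmid without SET, above both vectors (258.8 and 349.5).

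For 7 of the 9 receptor genes tested the full-length plasmid arrays all lay above their vector in set 1 and all below it in set 2. This held for 19.6% of all genes. After quantile normalization it held for 4 of the 9, beside 13.8% of all genes, and each set has 1 vector array. The set 1 minus set 2 difference of the plasmid effect (log2) was 0.43 for IL2RB, 0.75 for IL2RG, 0.15 for IL15RA, 0.75 for IL21R, 0.26 for IL4R, 0.40 for IL10RA and 0.33 for IL18R1. None passed in limma (adjusted p from 0.4 to 0.726).

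The JAK3 siRNA effect minus the EZH2 siRNA effect passed for JAK3 (-1.39; limma, adjusted p = 8.68e-05), the target of 1 of the siRNAs, and for the ligand gene IL10 (-0.99; limma, adjusted p = 0.00299).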

How the results depend on the processing

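Of 523 alternative values of the 9 receptor genes, 484 kept their direction and side of the threshold and 35 changed sign. The other 4 passed, each from a value that did not pass as first fitted. Many of these values could not change sign. Filters, moderation, blocks and fits of only the arrays compared leave the log2 change as it was, as do probe set means with 1 probe set per gene. Leaving out either array of an EZH2 pair gives the same value, so the 484 are no measure of stability. Of the 4 that passed, 1 is IL12RB2 after JAK3 siRNA in a fit of only the arrays compared (limma, adjusted p = 0.0405). Another is IL2RA after EZH2 siRNA with trend and robust fitting (limma, adjusted p = 0.0349). The rest are IL2RG after EZH2 siRNA without siRNA array 2 or control array 2, both of which rest on pair 1 alone. With quantile normalization IL2RA turned to -0.043 after JAK3 siRNA, IL15RA to -0.03 with the plasmids, and the difference between the knockdowns to -0.012 for IL2RB and 0.01 for IL18R1. With median centring IL10RA and IL4R turned to -0.007 and -0.008 after EZH2 siRNA, IL2RB to 0.008 with the plasmids, and IL18R1 to 0.011 in the difference between the knockdowns. Leaving out 1 array at a time gave log2 ranges across 0 after JAK3 siRNA for IL15RA (-0.026 to 0.073), IL2RA (-0.021 to 0.077) and IL2RG (-0.007 to 0.096), and after EZH2 siRNA for IL10RA (-0.01 to 0.051), IL12RB2 (-0.08 to 0.231), IL4R (-0.067 to 0.106) and IL10 (-0.022 to 0.283). The same held for the difference between the knockdowns in IL18R1 (-0.106 to 0.084) and IL2RB (-0.044 to 0.06). With the plasmids it held for IL10RA (-0.005 to 0.19), IL12RB2 (-0.198 to 0.557), IL15RA (-0.128 to 0.193), IL18R1 (-0.19 to 0.007), IL21R (-0.263 to 0.575), IL2RA (-0.198 to 0.372), IL2RB (-0.318 to 0.307), IL2RG (-0.052 to 0.439), IL4R (-0.003 to 0.188), JAK3 (-0.112 to 0.235), IL21 (-0.105 to 0.405), IL9R (-0.673 to 0.208) and CSF2RB (-0.376 to 0.084). For these the lowest and highest came without 1 or the other vector array, except the highest of IL18R1. Over all genes, the 200 called after JAK3 siRNA became 94 with no filter, 523 in a fit of only the arrays compared, 104 with the replicate number as a block and 33 to 45 without 1 array. The 136 called after EZH2 siRNA became 80 with quantile normalization, 0 with no filter (2511 at an unadjusted p under 0.05), 230 with trend and robust fitting, 77 with log2(value + 32), 217 with only the arrays compared and 20 with the pairs left out of the model. Without EZH2 siRNA array 1 or its control they were 0 (1637 and 1642 at an unadjusted p under 0.05), and without the arrays of pair 2 they were 1511. Of the 136, 54 were higher and 82 lower, against 47 and 33 after quantile normalization and 31 and 161 after median centring. The 53 called for the difference between the knockdowns became 15 with no filter, 19 with a block in the JAK3 arm, 29 without the block in the EZH2 arm and 14 to 323 without 1 array, the highest without EZH2 siRNA array 2 or its control; their split of 20 and 33 was 19 and 19 after median centring. The plasmid comparison had 0 calls in limma under every alternative run, with 54 at an unadjusted p under 0.05 with the set as a block and 4 to 2755 without 1 array. Same-numbered arrays of the JAK3 arm correlated at r = 0.152, which with 2 numbers does not show a pairing. Plasmid and vector arrays of the same set correlated at 0.842 over the genes tested, so that the sets differed largely alike in both. Among the receptor genes this varied. Set 1 minus set 2 (log2) for vectors and full-length plasmids was 0.57 and 0.63 for IL2RA and -0.625 and -0.19 for IL2RB. In the same order it was -0.49 and 0.26 for IL2RG, -0.32 and -0.18 for IL15RA, and -0.84 and -0.08 for IL21R. For IL4R it was -0.19 and 0.07, for IL10RA -0.20 and 0.20, for IL12RB2 -0.76 and -0.10, and for IL18R1 -0.33 and 0.0043. The main plasmid fit left the set out, and its SEs hold the differences between sets. No block changed a call among the 9 genes tested. The causes were not tested. With 2 arrays a group and residual degrees of freedom of 3 and 6, changes smaller than the printed intervals could not be resolved, and IL7R was too dim to test.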
